A study of Mus musculus with 17 samples.

Results

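The cells described here were germinal centre (GC) B cells with low activity of the cell-cycle kinase CDK2, divided into light-zone-like and dark-zone-like classes by 3 transcripts and compared within each mouse. A cell was called light-zone-like when it held at least 2 unique molecular identifiers (UMIs, each standing for 1 captured transcript) of Cd83 and Cd86 together and at most 1 of Cxcr4, and dark-zone-like when it held at least 2 UMIs of Cxcr4 and 0 of Cd83 and Cd86. Of 4385 kept CDK2-low cells, 2430 (55.4%) were light-zone-like and 81 (1.85%) were dark-zone-like, out of 69340 cell barcodes in the whole series. A further 1561 cells (35.6%) carried at least 2 UMIs of Cxcr4 together with at least 1 of Cd83 or Cd86, and 313 fell in neither range for lack of these transcripts. The members were thus chosen by their UMIs of Cd83, Cd86 and Cxcr4, which are given no result.

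All cells came from mice aged 5 to 12 weeks, primed with ovalbumin (OVA) and carrying the CD45.1 allele, which had received transferred B1-8hi B cells, whose receptor binds the hapten NP. The sorted cells expressed the Rosa26 DHB-tdTomato reporter, a fluorescent protein that leaves the nucleus as CDK2 becomes active. They carried it alone or together with an H2B-GFP histone reporter. For its imaging of treated mice, the paper describes reporter cells as a minor fraction of the B1-8hi cells. In the transfer design it refers to there, the remaining B1-8hi cells lacked Ly75, the gene of DEC-205. The mice were immunized with NP-OVA in the footpad, given an anti-DEC-205 antibody coupled to OVA 7 days later, and lymph nodes were taken 72 h after that treatment. GC B cells were sorted by imaging into a pool with nuclear reporter (CDK2-low) and a pool with cytoplasmic reporter (CDK2-high), and every mouse gave cells to both pools, so treated mice were compared with no untreated ones here. Each pool was 1 single-cell library of 5′ transcripts, with the mice told apart by hashtag antibodies, so mice are the replicates and the cells of 1 mouse are not.

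In the GC, B cells move between a dark zone, where they divide and mutate their antibody genes, and a light zone, where they take up antigen from follicular dendritic cells and present it to follicular helper T cells. The chemokine receptor CXCR4 holds cells in the dark zone, and CD83 and CD86 mark cells that have been activated in the light zone. Signals through the B cell receptor and through CD40, the receptor for T cell help, act in the light zone in part through the NF-kB transcription factors. The reporter separates cells by a different property, the position in the division cycle, so the comparison asks how cells with zone-marker transcripts differed when all of them had been sorted as CDK2-low.

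Dark-zone-like cells were rare in every mouse. The 7 mice gave 2 to 20 dark-zone-like cells and 132 to 589 light-zone-like cells each, which was 0.719% to 3.20% and 47.5% to 61.0% of the kept cells of a mouse. The gene comparison used the 4 mice (M1, M3, M5 and M10) with at least 10 cells of each class. Their 62 dark-zone-like cells summed to 151487 to 318531 UMIs per mouse and their 1657 light-zone-like cells to 2617535 to 7978524 UMIs, so the precision of every difference was set by the dark-zone-like sums. The light-zone-like cells held a median of 12182 UMIs and 3610 genes, and the dark-zone-like cells 13853 UMIs and 3854 genes. The median mitochondrial share was 3.61%, 3.51%, 3.49% and 4.26% in light-zone-like cells of M1, M3, M5 and M10. In their dark-zone-like cells it was 3.15%, 3.10%, 3.09% and 3.58%. M7, outside the 4 mice, went the other way (4.08% against 4.55%). Mean per-mouse medians were 12506 UMIs in light-zone-like and 13576 in dark-zone-like cells, lower in light-zone-like cells in 4 of 4 mice (exact two-sided sign-flip permutation test, p = 0.125, the smallest that 4 mice allow). With classes of at least 3 UMIs they were 13089 and 16843 in 3 mice, and outside the 4 mice M4 and M7 had the higher median in light-zone-like cells. Cells lay close to the class limits: 183 light-zone-like cells held exactly 2 UMIs of Cd83 and Cd86, against 149 cells with exactly 1 just outside, and 24 dark-zone-like cells held exactly 2 UMIs of Cxcr4, against 40 with exactly 1. A further 499 cells missed the light-zone-like class by holding exactly 2 UMIs of Cxcr4, and 146 missed the dark-zone-like class by holding exactly 1 of Cd83 and Cd86. The classes are ranges of 3 transcripts, not cell types. The median light-zone-like cell held 5 UMIs of Cd83, 4 of Cd86 and 0 of Cxcr4, and the median dark-zone-like cell held 0, 0 and 3.

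Both classes carried the transcripts of GC B cells. The 12 GC B cell markers summed to 8071 to 8316 CPM (UMIs of a gene per 1000000 UMIs of the sum) in light-zone-like and 6815 to 7288 CPM in dark-zone-like sums, with no marker at 0. Of the defining T cell markers, Cd3e, Cd3g, Cd4, Cd8a and Thy1 were at 0 in the dark-zone-like sums, and in the light-zone-like sums, which hold many more cells, they had 14, 14, 5, 0 and 42 UMIs, at most 3.82 CPM in any mouse. Cd3d had 1 UMI in the dark-zone-like and 26 in the light-zone-like sums, at most 3.32 and 2.29 CPM in any mouse. The T cell list summed to 199 to 244 against 153 to 264 CPM, most of it from Cd2 and Lck. Of these, Lck, a kinase of T cell receptor signalling, was higher in light-zone-like cells (0.97 ± 0.21, adjusted p = 0.00121, edgeR) and Cd2 had a difference of -0.29 that did not pass, and the part of T cells in the results was not tested. Myeloid markers summed to 62.3 to 72.2 against 63.1 to 119 CPM, with 11 of 13 at 0 in dark-zone-like cells, and stromal and red cell markers to 61.5 to 92.3 against 29.0 to 99.0 CPM. Naive B cell markers moved with the class, at 3627 to 3980 CPM in light-zone-like and 1835 to 2182 CPM in dark-zone-like sums, and their part in the results was not tested. The defining naive marker Ccr7 was at or near 0, with 0 to 1.75 CPM in light-zone-like cells and 0 in dark-zone-like cells.

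Across 8807 genes tested, 1310 (14.9%) differed between the classes at an adjusted p under 0.05, of which 715 (8.12%) were higher and 595 (6.76%) lower in light-zone-like cells (edgeR quasi-likelihood test with mouse as a block, Benjamini-Hochberg adjustment over all genes). Of the called genes, 1220 differed in the same direction in all 4 mice. The 2 classes did not overlap at all in 1919 genes (21.8%), called or not. The median difference over all genes was 0.02 on the log2 scale, which TMM scaling sets close to 0. Because the classes were cut from transcripts of the same cells, a p-value describes genes whose transcripts went with Cd83, Cd86 and Cxcr4 across mice, and a summed level cannot tell more cells with a transcript from more transcript per cell. All differences below are log2 fold changes of light-zone-like over dark-zone-like cells with their standard errors, and levels are CPM after TMM scaling, in the order M1, M3, M5 and M10.

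**Figure D1:**
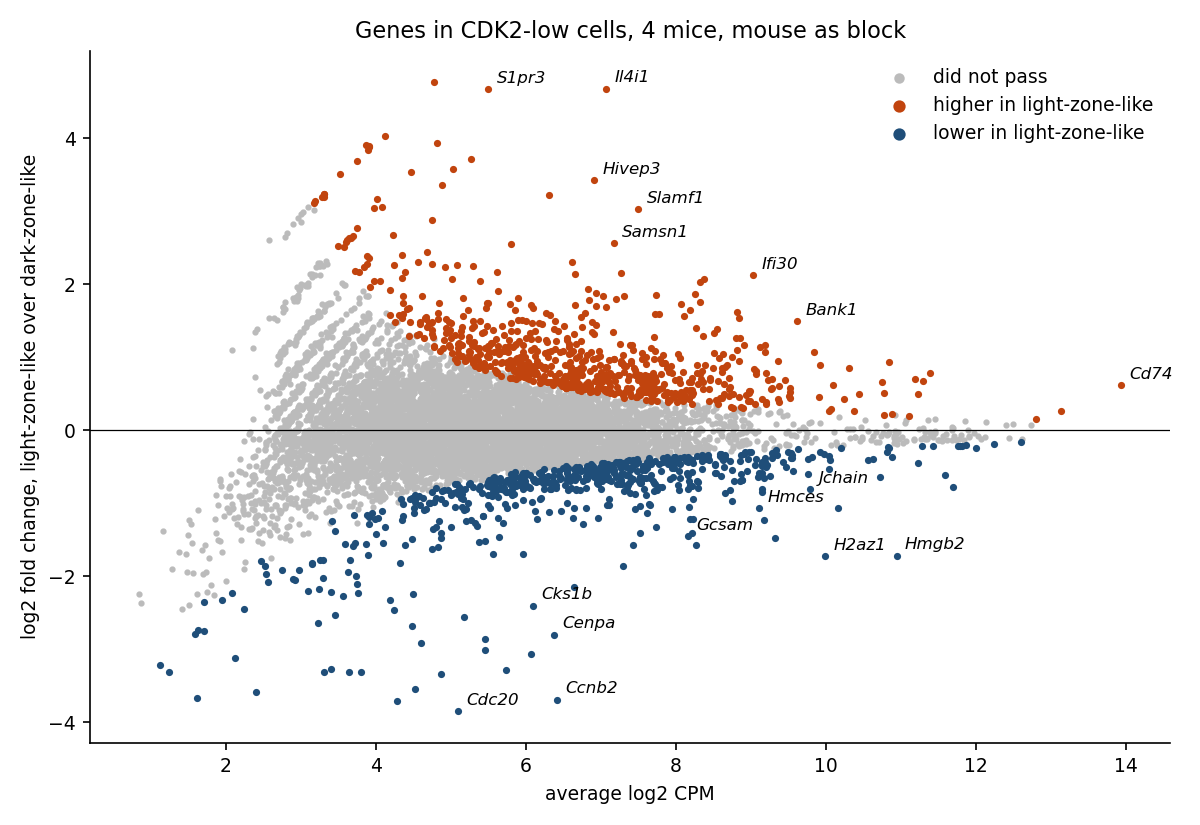
Log2 fold change of light-zone-like over dark-zone-like cells (vertical axis) against average log2 CPM (horizontal axis) for genes of the CDK2-low pool, coloured by direction where they passed the test. The 14 genes with a fitted change beyond 6 on the log2 scale had 0 dark-zone-like UMIs and are not drawn. Il4i1 and S1pr3 lie at the top and Cdc20 and Ccnb2 at the bottom.

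Genes of the light-zone programme rose beyond the 3 transcripts of the rule. Of 20 genes in the list of light-zone surface and signalling genes, 12 were higher and 1, Lmo4, was lower in light-zone-like cells. Of all genes 8.12% were called upwards and 6.76% downwards. The median difference of the list was 0.94 against 0.02 over all genes. Il4i1, which encodes a secreted amino acid oxidase of activated B cells, was at 202, 203, 179 and 117 CPM in light-zone-like cells and at 3.24, 4.27, 6.45 and 19.6 CPM in dark-zone-like cells. The lowest light-zone-like value was several times the highest dark-zone-like value, and the difference was 4.68 ± 0.33 (adjusted p = 3.16e-13, edgeR). Slamf1, an adhesion receptor used in contacts with helper T cells, was at 257, 251, 246 and 199 CPM against 48.6, 21.4, 19.4 and 26.2 CPM, a difference of 3.03 ± 0.22 (adjusted p = 4.2e-13). Hivep3, a zinc-finger protein that binds kappaB-type DNA sites, was at 154, 123, 164 and 162 CPM against 19.4, 25.6, 3.23 and 6.55 CPM. Its classes did not overlap, and the difference was 3.43 ± 0.30. Cd72 (2.14), a receptor that dampens B cell receptor signals, and Swap70 (1.14), a regulator of the actin cytoskeleton, also rose. Lmo4, a LIM-domain transcription cofactor, fell by 0.98, and it also fell in CDK2-high cells, by 1.07. Cd80, Icam1, Cd44, Batf, Marcksl1, Tnfrsf13b and Pdcd1lg2 did not pass the test.

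The sphingosine-1-phosphate receptor gene S1pr3 had the same estimate as Il4i1 but rests on few dark-zone-like UMIs. It was at 54.4, 41.8, 60.8 and 45.7 CPM in light-zone-like cells and at 3.24, 4.27, 0 and 0 CPM in dark-zone-like cells. This was 1188 against 2 UMIs, a ratio of 27.0 with a counting interval of 7.46 to 223, and a fitted difference of 4.68 ± 0.54 (adjusted p = 4.45e-08, edgeR). Among the other large rises were Tanc2 (3.71), Nxpe2 (3.23), Samsn1 (2.57) and Serpinb6b (2.56). Samsn1 encodes an adaptor that restrains B cell receptor signalling. Tanc2 spread from 10.6 to 76.7 CPM between mice in light-zone-like cells and reached 6.55 CPM in dark-zone-like cells, from 3 UMIs. Fgd2, which encodes an activator of the small GTPase CDC42, rose by 2.25 ± 0.38 (adjusted p = 4.66e-05).

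**Figure D2:**
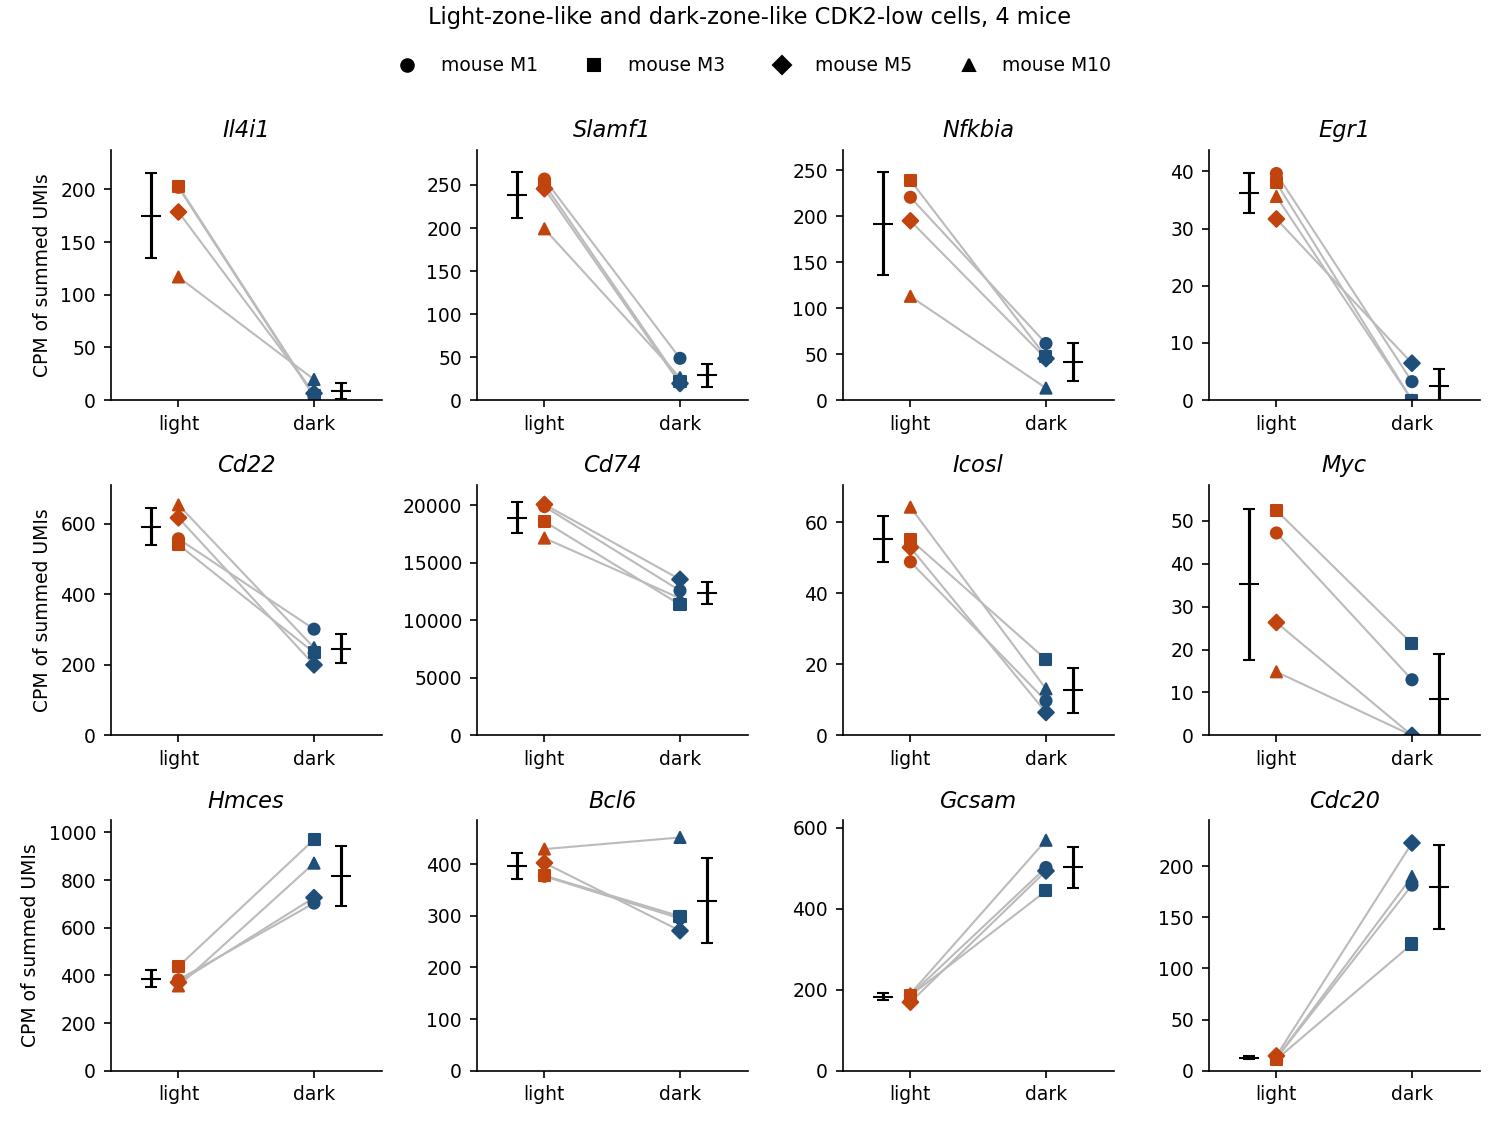
Levels of 12 genes in CPM of summed UMIs (vertical axis, from 0) in light-zone-like and dark-zone-like cells of the CDK2-low pool, with a grey line joining the classes of each of the 4 mice (marker shape) and bars for the mean and SD. Il4i1, Nfkbia and Cd22 are lower in dark-zone-like cells of every mouse, Cdc20, Hmces and Gcsam are higher in every mouse, and the classes of Bcl6 overlap, at 271 to 452 CPM.

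The NF-kB and CD40 response was higher in light-zone-like cells in 14 of 29 genes tested and lower in 0, with a median difference of 0.86. Of all genes 8.12% were called upwards and 6.76% downwards. Nfkbia, which encodes the inhibitor IkB-alpha and is itself switched on by NF-kB, was at 220.4, 239, 195 and 113 CPM in light-zone-like cells and at 61.6, 47.0, 45.2 and 13.1 CPM in dark-zone-like cells, a difference of 2.15 ± 0.20 (adjusted p = 2.15e-10, edgeR). Mouse M10 had the lowest value in both classes, and the classes did not overlap. Bcl3, which encodes a nuclear partner of the p50 and p52 subunits, was at 47.0, 43.7, 31.3 and 24.2 CPM against 13.0, 4.27, 9.68 and 0 CPM, a difference of 2.26 ± 0.42 (adjusted p = 0.000178). The subunit genes Relb (1.74), Nfkb2 (1.5), Rel (0.86) and Nfkb1 (0.75) all passed the test, whereas Rela had a difference of 0.17 that did not. Rel was among the least variable of these genes, at 273 to 282 CPM in light-zone-like and 126 to 181 CPM in dark-zone-like cells. Upstream, the receptor gene Cd40 rose by 1.22, the kinase gene Map3k14 by 0.74 and the adaptor gene Traf3 by 1.32. Of the target genes that protect cells from death, Birc3 rose by 1.03 ± 0.17, and Bcl2a1b rose by 1.08, a call lost without mouse M1 (0.87, adjusted p = 0.133). Bcl2a1b and Bcl2a1d are near-identical copies that can share reads, and Bcl2a1d had a difference of 1.03 that did not pass. When only cells assigned to G0-G1 were compared, 1 of 29 genes was higher and 0 lower in the 2 mice with at least 10 such cells of each class, where 131 of all 9239 genes were called. In the 6 mice with at least 5, a limit chosen after seeing the cell numbers, 10 of 29 list genes were higher and 0 lower. There 7.55% of all 8809 genes were called, 5.09% upwards and 2.46% downwards. These numbers over all genes also stand beside the counts from G0-G1 cells given for other lists below.

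The promoters of Nfkbia and Bcl3 are shown because they are among the genes of this list that rose and each carries a kappaB motif, the DNA sequence bound by NF-kB. The sequences are from RefSeq (GRCm38.p6), run 5′ to 3′ on the strand of the gene from 250 bases before to 50 bases after the annotated start, and hold the motif in capitals, which for Nfkbia is the reverse complement because its match is on the other strand. Their places in that build are chr12:55492598-55492897 and chr7:19822706-19823005, both on the minus strand.
Nfkbia: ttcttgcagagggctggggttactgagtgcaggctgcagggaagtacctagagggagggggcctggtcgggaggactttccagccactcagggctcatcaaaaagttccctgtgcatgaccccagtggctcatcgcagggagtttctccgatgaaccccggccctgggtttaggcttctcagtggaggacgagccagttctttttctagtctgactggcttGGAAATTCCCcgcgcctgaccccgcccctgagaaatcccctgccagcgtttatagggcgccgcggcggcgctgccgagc
Bcl3: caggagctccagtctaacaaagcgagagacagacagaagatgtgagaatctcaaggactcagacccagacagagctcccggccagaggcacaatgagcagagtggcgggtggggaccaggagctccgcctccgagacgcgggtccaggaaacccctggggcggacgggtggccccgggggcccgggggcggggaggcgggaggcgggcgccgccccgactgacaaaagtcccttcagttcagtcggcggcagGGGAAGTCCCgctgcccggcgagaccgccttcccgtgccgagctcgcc
The Nfkbia match began 29 bases before the start and the Bcl3 match 3 bases after it, and Bcl3 matched on both strands. Of all 32851 RefSeq promoters of this length, 8.46% held the kappaB consensus on either strand. Promoters were found for 25 of the 29 genes tested, and the motif was in 8 of the 11 matched genes that rose and in 4 of the 14 that did not pass. Counted by gene in the same way, 854 of the 7149 matched genes among all 8807 tested held it. These counts describe letters in a window, not bound sites.

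Immediate-early genes, which are transcribed within minutes of receptor engagement, were higher in light-zone-like cells in 7 of 19 genes tested and lower in 1. Of all genes 8.12% were called upwards and 6.76% downwards. The median difference of the list was 0.79. Egr1, a zinc-finger factor that follows B cell receptor signalling, was at 39.6, 38, 31.7 and 35.6 CPM in light-zone-like cells and at 3.24, 0, 6.45 and 0 CPM in dark-zone-like cells. The dark-zone-like values came from 3 UMIs against 795, a ratio of 12 with a counting interval of 4.11 to 58.5, and the fitted difference was 3.58 ± 0.55 (adjusted p = 8.87e-06, edgeR). Junb, a subunit of the AP-1 transcription factor, was at 159, 154, 132 and 97.7 CPM against 42.1, 47.0, 42 and 26.2 CPM, a difference of 1.78 ± 0.21. Both genes kept the classes apart in all 4 mice. Dusp2 (0.98) and Zfp36l1 (0.80) rose, the former a phosphatase of MAP kinases and the latter a protein that destabilizes messenger RNAs. Dusp1, another MAP kinase phosphatase, fell by 1.38, but 0 genes of the list were called lower after thinning or among G0-G1 cells. The other 11 genes of the list did not pass.

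Components of B cell receptor signalling were higher in 13 of 25 genes and lower in 0 (8.12% and 6.76% of all genes), with a median of 0.30. The genes that rose most were co-receptors, inhibitory receptors and adaptors rather than the core receptor chains. Cr2, which encodes the complement receptor CD21, was at 92.5, 69.5, 144 and 159 CPM against 9.72, 29.9, 35.5 and 13.1 CPM, a difference of 2.31 ± 0.27 (adjusted p = 5.82e-08, edgeR). Pik3ap1, the adaptor BCAP that recruits PI3-kinase, was at 409, 427, 426 and 422 CPM against 159, 98.3, 103 and 137 CPM, a difference of 1.76 ± 0.14 (adjusted p = 1.06e-11). The spread between mice of Pik3ap1 was small beside the gap between the classes. Cd22, an inhibitory sialic acid receptor, was at 558, 541, 617 and 654 CPM against 301, 235, 200.1 and 249 CPM (1.26 ± 0.12), and Ptpn6, the phosphatase SHP-1 that acts with it, rose by 1.27 ± 0.13. Vav1 (0.95), Ptprc (0.85), Prkcb (0.82) and Plcg2 (0.56) also rose. The receptor chain genes Cd79a and Cd79b differed by 0.26 and 0.23, and the call for Cd79b was lost without M1, M5 or M10 (0.15 to 0.24). Syk, Btk, Blnk and Lyn did not pass the test.

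Of 15 genes of antigen presentation through MHC class II, 12 were higher in light-zone-like cells and 0 lower, with a median of 0.56. Of all genes 8.12% were called upwards and 6.76% downwards. In G0-G1 cells of mice with at least 5, 8 were higher and 1 lower (5.09% and 2.46% of all genes). Ifi30, a lysosomal thiol reductase that unfolds antigen, was at 873, 652, 796 and 648 CPM in light-zone-like cells and at 168, 244, 148 and 124 CPM in dark-zone-like cells, a difference of 2.12 ± 0.14 (adjusted p = 2.78e-14, edgeR). Ciita, the master activator of class II genes, was at 443, 385, 472 and 546 CPM against 201, 145, 184 and 196 CPM, a difference of 1.33 ± 0.12. The invariant chain gene Cd74, among the most abundant transcripts, was at 18931 ± 1357 CPM (SD, n = 4) against 12360.1 ± 944 CPM, a smaller difference (0.62) but with no overlap. H2-Aa (0.78), H2-Ab1 (0.70) and the peptide-loading genes H2-DMb2 (0.79) and H2-Oa (0.56) rose with it. The proteases Ctss and Lgmn and the ubiquitin ligase gene Marchf1 did not pass.

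Receptors and ligands for T cell help were higher in 10 of 20 genes and lower in 0 (8.12% and 6.76% of all genes), with a median of 0.74. Cd40, Slamf1, Icosl, Cd80, Tnfrsf13b and Pdcd1lg2 are also in the light-zone list, and Cd40 in the NF-kB list, so they count again. In G0-G1 cells 2 of 20 were higher and 0 lower in 2 mice. In mice with at least 5, 7 of 19 were higher and 0 lower (5.09% and 2.46% of all genes). Icosl, the ligand of ICOS on helper T cells, was at 48.8, 55.1, 52.9 and 64.2 CPM against 9.72, 21.4, 6.45 and 13.1 CPM, a difference of 2.17 ± 0.34 (adjusted p = 1.33e-05, edgeR). The cytokine receptor genes Il21r (0.98 ± 0.14), Il2rg (0.86) and Il4ra (0.74), the BAFF receptor gene Tnfrsf13c (1.16 ± 0.12) and the death receptor gene Fas (0.63 ± 0.14) rose as well. Ly75 encodes DEC-205, the receptor that the injected antibody targets, and was at 128, 133, 85.0 and 70.2 CPM in light-zone-like and at 64.8, 55.5, 61.3 and 72 CPM in dark-zone-like cells. M10 showed almost equal levels, and the difference of 0.74 ± 0.21 (adjusted p = 0.0115) did not pass without M1 (0.60, adjusted p = 0.154) or M3 (0.59, adjusted p = 0.0694).

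Of the receptors that place B cells in the follicle, 4 of 22 genes were higher in light-zone-like cells and 0 lower, with a median of 0.20. Over all genes 8.12% were called upwards and 6.76% downwards. The 4 were Cxcr5, Ccr6, Gpr183 and S1pr3. Ccr6 and S1pr3 had 0 and 2 dark-zone-like UMIs, so they passed the filter on low counts through their light-zone-like sums. The counts of the list moved with the setting, to 2 higher and 0 lower with DESeq2, 7 higher and 2 lower after thinning, and 3 of 24 higher and 2 lower in G0-G1 cells of mice with at least 5. Cxcr5, the receptor for the light-zone chemokine CXCL13, was at 158, 172, 155 and 137 CPM against 58.3, 81.2, 100 and 85.1 CPM, a difference of 0.96 ± 0.18 (adjusted p = 0.000163, edgeR). The classes did not overlap for Cxcr5. Ccr6 was at 9.97, 4.56, 8.17 and 6.5 CPM in light-zone-like cells and at 0 in all dark-zone-like sums. Pooled over the mice this was 179 against 0 UMIs, a counting bound of 2.71-fold at a floor of 3 counts, not a bound for each mouse. The call for Ccr6 was lost without M10 (adjusted p = 0.0534). Gpr183, the oxysterol receptor EBI2, differed by 1.53 (adjusted p = 0.0339), and the call was lost without M1, M5 or M10 (1.04 to 1.79, adjusted p = 0.0541 to 0.339). S1pr2 and Gna13, which confine B cells to the GC, had differences of 0.28 and -0.04 and did not pass.

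Transcription factors of GC B cells were higher in light-zone-like cells in 11 of 27 genes and lower in 3, and 13 did not pass, with a median of 0.32. Of all genes 8.12% were called upwards and 6.76% downwards, and these shares also stand beside the naive, memory and plasma cell counts that follow. Mef2c and Ikzf1 (both 1.07), Ebf1 (0.90), Pou2f2 (0.90) and Bach2 (0.67) rose. Tcf3, which encodes E2A, fell by 0.75 and Foxp1 by 0.43, and Pou2af1 fell by 0.25, a call lost without M3, M5 or M10 (adjusted p = 0.0558 to 0.329). The GC regulator Bcl6 was at 377, 378, 402 and 429 CPM against 295, 299, 271 and 452 CPM, a difference of 0.31 that did not pass (adjusted p = 0.0747, edgeR) and did without M10 (0.40, adjusted p = 0.0465). Foxo1, a factor of the dark-zone programme, was at 246, 266, 273 and 340.1 CPM against 253, 218, 223 and 321 CPM, a difference of 0.15 (adjusted p = 0.472). Genes of resting B cells were among those that rose, with 5 of 7 naive B cell genes higher and a median of 1.53. Fcer2a, which encodes CD23, was at 441, 360.1, 466 and 452 CPM against 58.3, 124, 106 and 157 CPM (2.03 ± 0.16), and the adaptor gene Bank1 rose by 1.49 ± 0.11. Klf2, a factor of quiescent lymphocytes, was at 31.8, 19.0, 33.6 and 41.3 CPM against 3.24, 0, 6.45 and 0 CPM, from 3 dark-zone-like UMIs, and its ratio of 10.9 had a counting interval of 3.72 to 53.1. In G0-G1 cells of mice with at least 5, the fitted difference of Klf2 was 1.09 against 3.36 over all phases (adjusted p = 0.137, edgeR) and that of Bach2 was 0.19 (adjusted p = 0.222), and both calls were lost. Of 12 memory precursor genes 6 were higher and 2, Cd55 (-0.85) and Nt5e (-0.89), were lower, with a median of 1.0. In G0-G1 cells 1 of 15 was higher and 0 lower in 2 mice. In mice with at least 5, 2 of 15 were higher and 2 lower (5.09% and 2.46% of all genes), with a median of 0.38. Of 8 plasma cell genes, with a median of 0.47 (-0.32 over 6 genes after thinning), Xbp1 rose by 0.53, a call lost without M1, M5 or M10 (adjusted p = 0.0609 to 0.158), and Jchain and Slamf7 fell. Jchain, which encodes the chain that joins IgM and IgA multimers, was at 709, 715, 664 and 604 CPM against 1150.3, 1179, 1119.8 and 1277 CPM (-0.81 ± 0.08), and Slamf7 fell by 0.45, a call lost without M5 or M10 (adjusted p = 0.205 and 0.0986).

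**Figure D3:**
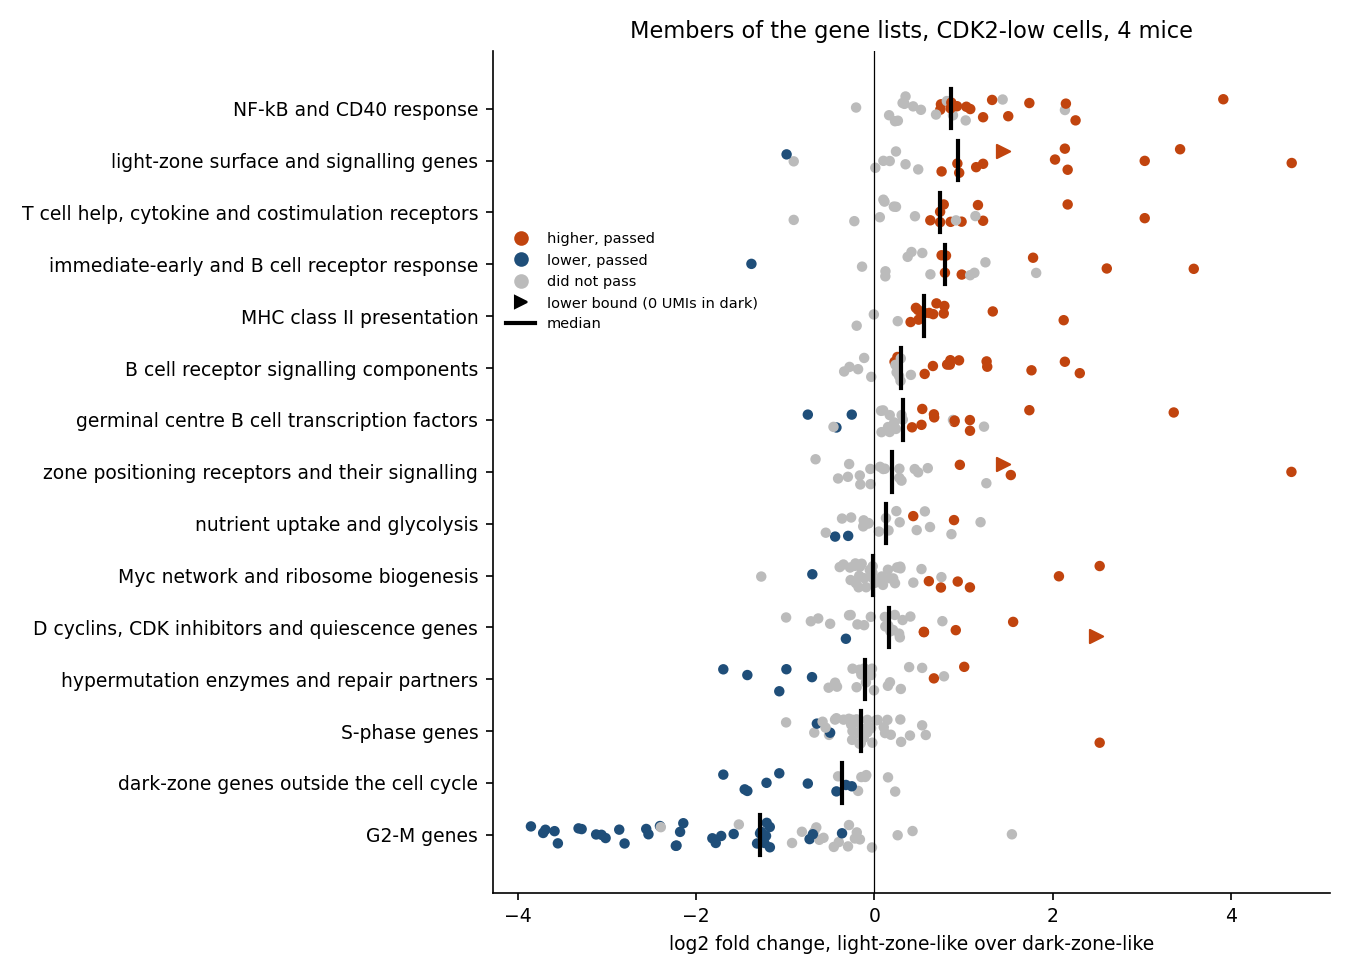
Log2 fold change of light-zone-like over dark-zone-like cells (horizontal axis) for the tested members of 15 gene lists (vertical axis), coloured by direction where the gene passed the test, with a bar at the list median and arrowheads for lower bounds of genes with 0 dark-zone-like UMIs. The medians of the NF-kB, light-zone and MHC class II lists lie to the right of 0, and 34 of 53 G2-M genes passed to the left with a median of -1.28.

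The largest falls were genes of G2 and mitosis. Of 53 G2-M genes tested, 34 were lower in light-zone-like cells and 0 higher (6.76% and 8.12% of all genes). Their median was -1.28 against 0.02 over all genes. Cdc20, the activator of the anaphase-promoting complex, was at 12, 11, 14.4 and 12.2 CPM in light-zone-like cells and at 181, 124, 223 and 189.9 CPM in dark-zone-like cells, a difference of -3.85 ± 0.21 (adjusted p = 2.22e-16, edgeR). Ccnb2, which encodes the mitotic cyclin B2, was at 29.8, 25.8, 21.3 and 22.3 CPM against 305, 158, 471 and 354 CPM, a difference of -3.69 ± 0.20. In both genes, the light-zone-like values lay within a narrow range and M3 had the lowest dark-zone-like value. Cdca8, a subunit of the chromosomal passenger complex, was at 29.0, 27.0, 25.7 and 34.6 CPM against 237, 141, 332 and 242 CPM, a difference of -3.06 ± 0.18. Its partner Birc5 fell by 3.28 and the ubiquitin-conjugating enzyme gene Ube2c fell by 2.56. The differences were -2.86 and -3.72 for the spindle genes Tpx2 and Hmmr and -2.80, -2.14 and -3.55 for the centromere genes Cenpa, Cenpe and Cenpf. Mki67, the proliferation marker Ki-67, fell less, at 372, 321, 363 and 468 CPM against 810.1, 1021, 900.4 and 805 CPM (-1.23 ± 0.11). Abundant chromatin genes of dividing cells fell with a small spread between mice, with Hmgb2 at -1.72 ± 0.07 (adjusted p = 9.16e-19) and the histone variant gene H2az1 at 542, 566, 465 and 459 CPM against 1335, 1888, 1762 and 1768 CPM (-1.72 ± 0.09). Among cells assigned to G0-G1, 15 of 45 G2-M genes were lower and 0 higher in 2 mice, with a median of -1.02, and 17 of 45 were lower and 0 higher in the 6 mice with at least 5 cells of each class, with a median of -0.98 (2.46% of all genes called downwards).

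The promoters of Cdc20, Ccnb2 and Cdca8 are shown because these are among the genes that fell most, and promoters of such genes are known to carry the cell-cycle homology region, TTTGAA, and the CCAAT box bound by NF-Y. The sequences are from RefSeq (GRCm38.p6), over the same window and all on the minus strand, at chr4:118437294-118437593, chr9:70421505-70421804 and chr4:124936868-124937167, with TTTGAA and CCAAT in capitals, or their reverse complements where the match is on the other strand (ATTGG for CCAAT).
Cdc20: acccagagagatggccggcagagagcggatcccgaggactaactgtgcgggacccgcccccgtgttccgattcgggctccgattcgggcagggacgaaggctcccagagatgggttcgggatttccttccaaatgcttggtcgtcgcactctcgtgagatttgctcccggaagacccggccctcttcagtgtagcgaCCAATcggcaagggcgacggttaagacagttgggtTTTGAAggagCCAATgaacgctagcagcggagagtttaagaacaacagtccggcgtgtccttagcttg
Ccnb2: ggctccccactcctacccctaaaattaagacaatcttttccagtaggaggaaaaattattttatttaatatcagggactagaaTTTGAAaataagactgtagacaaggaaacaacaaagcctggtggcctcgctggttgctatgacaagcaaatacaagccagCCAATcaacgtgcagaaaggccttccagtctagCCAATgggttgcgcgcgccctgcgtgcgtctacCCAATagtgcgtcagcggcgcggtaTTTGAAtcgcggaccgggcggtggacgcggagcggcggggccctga
Cdca8: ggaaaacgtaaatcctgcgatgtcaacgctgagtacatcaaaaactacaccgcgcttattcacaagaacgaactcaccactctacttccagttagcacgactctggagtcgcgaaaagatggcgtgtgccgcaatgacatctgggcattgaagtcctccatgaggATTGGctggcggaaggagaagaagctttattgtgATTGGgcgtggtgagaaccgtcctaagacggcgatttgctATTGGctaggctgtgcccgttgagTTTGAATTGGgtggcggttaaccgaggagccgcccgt
Cdc20 held TTTGAA 18 bases before the start, between CCAAT boxes that began 53 and 8 bases before it. Ccnb2 held 3 CCAAT boxes, 87, 54 and 21 bases before the start, and TTTGAA 167 bases before and 5 bases after it. Cdca8 held 4 inverted CCAAT boxes, the last of which overlapped its TTTGAA. On either strand, TTTGAA was in 17.9% and CCAAT in 37.4% of all 32851 promoters. Of 53 G2-M genes 46 were matched, and TTTGAA was in 23 of the 30 matched genes that fell and in 10 of the 16 that did not pass, CCAAT in 23 of 30 and 12 of 16. Counted by gene in the same way, TTTGAA was in 1032 and CCAAT in 3135 of the 7149 matched genes among all 8807 tested.

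The phase of each cell, scored with Seurat from S and G2-M genes, was also compared. It reads the same transcripts as the G2-M list and is no independent measure of it. Of light-zone-like cells 81.4% were assigned to G0-G1, 17.4% to S and 1.11% (27 of 2430) to G2-M, and of dark-zone-like cells 61.7%, 14.8% and 23.5% (19 of 81). With every cell thinned to 6639 UMIs, the G0-G1 share was 80.1%, 82.4%, 82.2% and 74.2% in light-zone-like cells of M1, M3, M5 and M10, and 61.1%, 61.5%, 47.4% and 50% in dark-zone-like cells. The 2 sets of shares did not overlap. Means were 79.7% ± 3.83 and 55.0% ± 7.38 (SD, n = 4), a difference of 24.7 percentage points, higher in 4 of 4 mice (exact two-sided sign-flip permutation test, p = 0.125, the smallest possible), and 22.4 points without thinning. Over the 6 mice with at least 5 cells of each class the difference was 17.8 points in the same direction in all 6 (exact permutation p = 0.03125, the smallest possible), with 1.30 points in M6 and 6.82 in M7 against 19.0 to 34.9 in the other 4. It was 38.1 points with stricter classes (at least 3 UMIs, 3 mice) and 11.1 with the dark-zone-like class widened to at most 1 UMI of Cd83 and Cd86, where M6 turned sign (-1.48 points, higher in 6 of 7 mice). Of 43 S-phase genes 1 was higher and 2, Nasp and Rrm1, were lower (8.12% and 6.76% of all genes), with a median of -0.15. With DESeq2 0 were called, the median was 0.17 and 0.35 in G0-G1 cells (2 and 6 mice), and Nasp (0.32) and Rrm1 (0.51) changed sign in the latter.

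**Figure D4:**
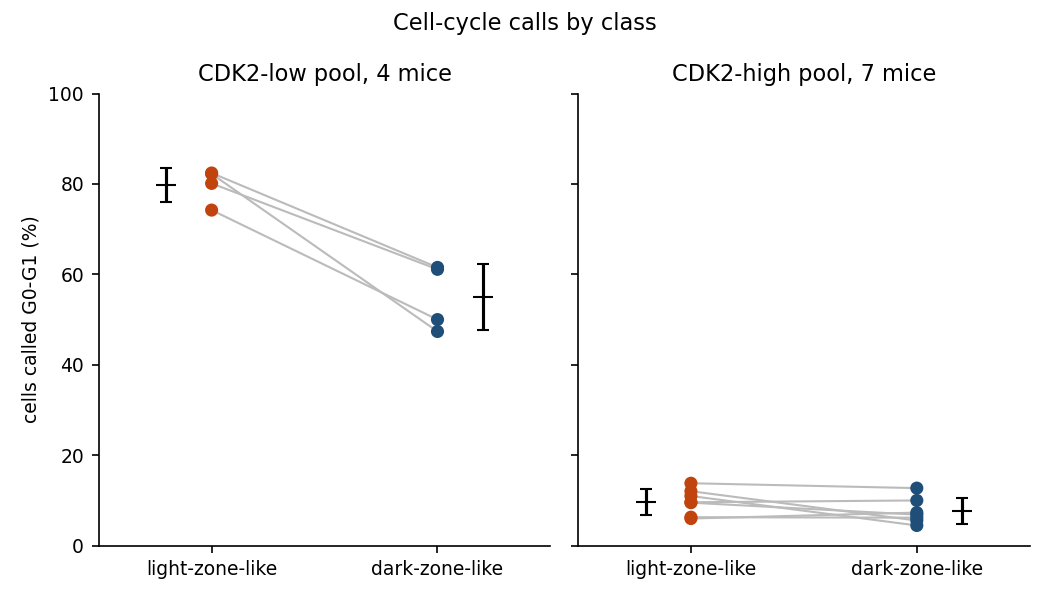
Share of cells assigned to G0-G1 in percent (vertical axis) in the classes of each pool after thinning to 6639 UMIs, with a point for each mouse, a line joining its classes and bars for the mean and SD. In the CDK2-low pool the light-zone-like shares lie between 74.2% and 82.4% and the dark-zone-like shares between 47.4% and 61.5%, and in the CDK2-high pool the means are 9.75% and 7.59%.

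Of 16 dark-zone genes listed outside the cell cycle, 9 were lower in light-zone-like cells and 0 higher, with a median of -0.36. Over all genes 6.76% were called downwards. The 9 include the cyclin gene Ccnd3 and Pou2af1, whose calls were lost without single mice. They also include Hmces, Polh and Lig4, which count again among the hypermutation genes. Tcf3, Foxp1 and Pou2af1 are the falls already counted among the GC transcription factors, and Ccnd3 counts again among the D cyclins. In G0-G1 cells 4 of 16 were lower in 2 mice and 7 of 16 in mice with at least 5, and 0 were higher in both. Gcsam, a GC signalling adaptor, was at 187, 186, 169 and 189.9 CPM against 502, 444, 494 and 569.6 CPM, a difference of -1.45 ± 0.11 (adjusted p = 3.21e-12, edgeR). Smarca4, the ATPase of the BAF chromatin remodeller, fell by 1.21 ± 0.11. Foxo1, Rassf6, Ezh2, Mybl1, Rgs13 and Elovl5 did not pass, and the estimate for Foxo1 was positive.

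Genes of somatic hypermutation and its repair were lower in light-zone-like cells in 5 of 25 genes and higher in 2, where 6.76% and 8.12% of all genes were called in these directions. In G0-G1 cells 0 of 23 were higher and 1 lower in 2 mice, and 3 of 23 were higher and 3 lower in mice with at least 5, where the median was 0.14 against -0.11 over all phases. Hmces, which shields abasic sites in single-stranded DNA, was at 381, 438, 370.4 and 355 CPM against 703, 969.8, 726 and 871 CPM (-1.07 ± 0.10, adjusted p = 1.52e-10, edgeR). Polh, the error-prone polymerase that makes most mutations at A and T bases, was at 39.5, 29.2, 30.1 and 40.8 CPM against 117, 137, 136 and 39.3 CPM (-1.69 ± 0.23, adjusted p = 1.16e-06). M10 stood apart for Polh, with equal levels in the 2 classes. The glycosylase gene Neil1 was at 347, 351, 357 and 365 CPM against 502, 564, 600.3 and 655 CPM (-0.70 ± 0.10), and the polymerase gene Poli and the ligase gene Lig4 fell by 0.99 and 1.42. Ung, the glycosylase that removes uracil from DNA, was at 18.4 to 23.0 CPM against 16.1 to 38.5 CPM, a difference of -0.20 whose 95% interval of -0.90 to 0.50 leaves changes of either sign. Rev1, a translesion polymerase, rose by 0.67 ± 0.15 (adjusted p = 0.00109). Apex1, the endonuclease that cuts abasic sites, was at 80.0, 79.4, 64.0 and 49.9 CPM against 29.2, 89.7, 16.1 and 6.55 CPM, and its difference of 1.01 was lost without M1, M5 or M10 (0.75 to 0.85, adjusted p = 0.0765 to 0.181).

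Among D cyclins and cell-cycle brakes, 5 of 26 genes were higher and 1 lower, where 8.12% of all genes were called upwards and 6.76% downwards. With DESeq2 2 of the 26 were higher and 1 lower (415 and 462 of all 8807 genes). After thinning 2 of 25 were higher and 2 lower (618 and 463 of all 7780 genes). In G0-G1 cells 0 of the list were called in 2 mice, and 2 were higher and 1 lower in mice with at least 5. Ccnd2, which encodes cyclin D2, was at 25.9, 25.4, 10.3 and 5.20 CPM in light-zone-like cells and at 0 in all 4 dark-zone-like sums. Pooled over the 4 mice this was 371 against 0 UMIs, a counting bound of 5.62-fold at a floor of 3 counts. The bound is for the pooled sums and not for each mouse. Under other settings the fitted difference of Ccnd2 went as low as 0.76. The same gene did not pass when mice with at least 5 cells were added (1.55, adjusted p = 0.0828, edgeR). Ccnd3, the D cyclin that drives division in the dark zone, was at 313, 352, 365 and 385 CPM against 369, 474, 439 and 491 CPM, a difference of -0.32 (adjusted p = 0.0352) that was lost without M3, M5 or M10 (adjusted p = 0.0878 to 0.114). The CDK4 and CDK6 inhibitor gene Cdkn2c rose by 1.56, a call lost without M1 or M5 (adjusted p = 0.186 and 0.146), E2f3 by 0.91, and the antiproliferative gene Btg1 by 0.56, a call lost without M1 (adjusted p = 0.124).

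Myc, which T cell help induces and which licenses division, was at 47.2, 52.4, 26.3 and 14.8 CPM in light-zone-like cells and at 13.0, 21.4, 0 and 0 CPM in dark-zone-like cells. Both classes had lower values in M5 and M10 than in M1 and M3, and within each mouse the light-zone-like value was higher, a difference of 2.07 ± 0.44 (adjusted p = 0.00073, edgeR) that did not pass without the mouse block (1.92, adjusted p = 0.0981). Of 38 genes of the Myc network and ribosome biogenesis, 6 were higher and 1 lower, with a median of -0.01, where 8.12% of all genes were called upwards and 6.76% downwards. With DESeq2 2 of the list were higher and 1 lower (415 and 462 of all 8807 genes). After thinning 2 of 35 were higher and 0 lower (618 and 463 of all 7780 genes). In G0-G1 cells the median of the list was 0.36 with 0 called (2 mice), and 0.49 with 4 of 37 higher and 0 lower in the 6 mice with at least 5 cells of each class. Over all phases the polyamine enzyme gene Srm rose by 1.07. The nucleolar GTPase gene Gnl3 rose by 0.94, a call lost without M1 or M3 (adjusted p = 0.159 and 0.073). Rrs1, a ribosome assembly factor, fell by 0.70, and the abundant nucleolar genes Ncl (0.21) and Npm1 (-0.16) did not pass. Of 21 nutrient and glycolysis genes, Slc38a2 and Ldha were higher and Gapdh and Pgk1 lower, shares near those of all genes called (8.12% and 6.76%). The call for Gapdh (-0.29) was lost without M5 or M10 and that for Pgk1 (-0.44) without M3 or M10, and in G0-G1 cells of mice with at least 5 they were at -0.08 and -0.06. In the Bcl-2 family Bcl2a1b was the only gene of 12 to pass, a share near that of all genes called upwards (8.12%). With DESeq2 0 passed, after thinning 1 was higher and 1 lower, and in G0-G1 cells of mice with at least 5, 2 of 13 were higher. Mcl1 had a difference of 0.06.

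The same class rule was applied to the CDK2-high pool of the same mice. It held 7448 kept cells, of which 3098 (41.6%) were light-zone-like and 568 (7.63%) dark-zone-like, with at least 10 cells of each class in all 7 mice, and its classes differed more in depth, at a median of 9942 against 14315 UMIs. In a fit of both pools 3806 of 9078 genes (41.9%) differed between the classes in CDK2-high cells, 21.3% upwards and 20.6% downwards, against 1830 (20.2%, 8.24% upwards and 11.9% downwards) in CDK2-low cells, where fewer dark-zone-like cells and mice entered. Of the CDK2-low calls, 79% were also called with the same sign in CDK2-high cells, and of the CDK2-high calls 38% in CDK2-low cells. The difference between the classes itself differed between the pools for 220 genes (2.42%, edgeR interaction), 29 (0.319%) with a more positive and 191 (2.1%) with a more negative value in CDK2-low cells. This number fell to 128 without mouse M5 and to 81 after thinning to equal depth, which also redrew the classes, left out 1609 CDK2-high cells and used 6 CDK2-low mice in place of 4. Interaction terms come from the fit of both pools, so they need not equal the gap between the separate estimates.

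G2-M genes made up many of the negative terms, with 42 of 54 called, 33 with mice of at least 5 cells and 25 after thinning. In CDK2-high cells this list had 18 genes higher and 14 lower in light-zone-like cells, with a median of 0.04 against -1.28 in CDK2-low cells. Cdc20 differed by -3.85 in CDK2-low and by -0.87 in CDK2-high cells, with an interaction of -3.07 ± 0.19 (adjusted p = 1.27e-18, edgeR). Among genes with an average log2 CPM above 5, the terms with the most negative values were Cenpf (-3.69), Aspm (-3.54), Kif2c (-3.53), Hmmr (-3.51) and Plk1 (-3.29), which encode centromere, spindle and mitotic kinase proteins. Mki67 differed by -1.23 in CDK2-low and 0.12 in CDK2-high cells. The G0-G1 share in CDK2-high cells was 9.75% ± 2.87 in light-zone-like and 7.59% ± 2.85 in dark-zone-like cells (SD, n = 7, exact sign-flip permutation p = 0.172).

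**Figure D5:**
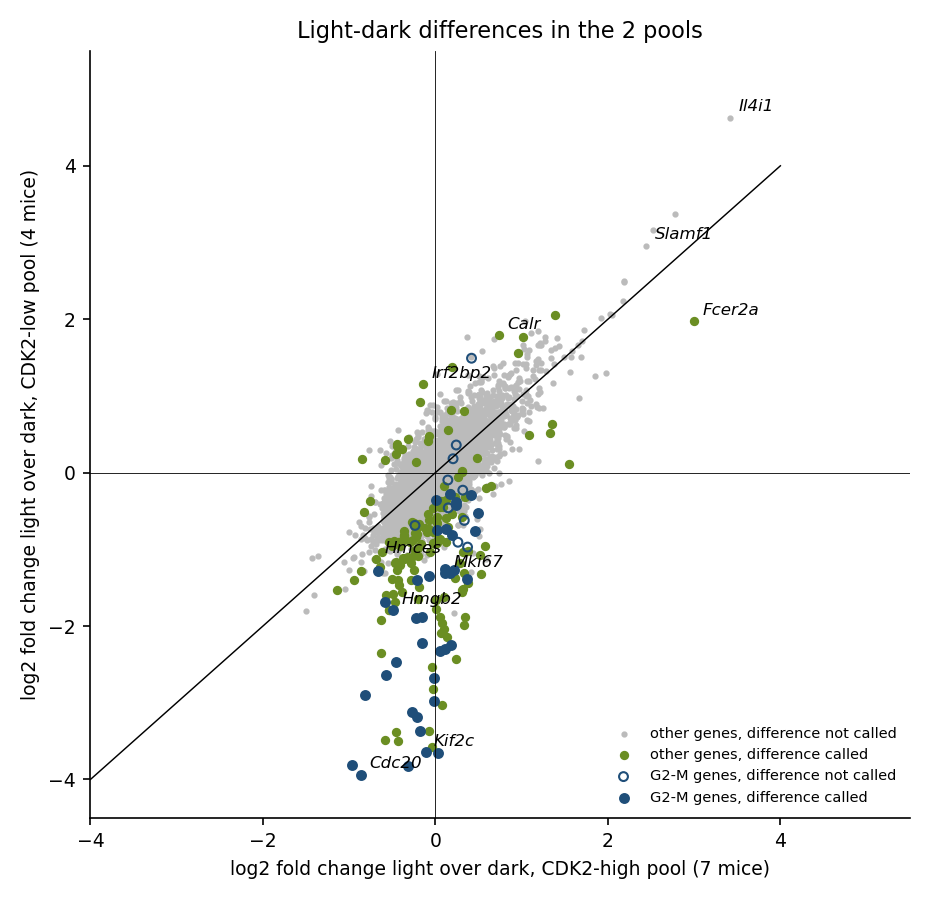
Log2 fold change of light-zone-like over dark-zone-like cells in the CDK2-low pool (vertical axis, 4 mice) against the CDK2-high pool (horizontal axis, 7 mice) for genes with an average log2 CPM above 5, with the line of equal change, G2-M genes in blue and filled where the difference between the pools passed the test. Slamf1 lies near the line, and G2-M genes such as Cdc20 lie below it.

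Other genes differed between the pools as well. Polh fell by 1.69 in CDK2-low and by 0.53 in CDK2-high cells (interaction -1.26 ± 0.21, adjusted p = 3.31e-05, edgeR), and Hmces by 1.07 and 0.69 (interaction -0.44, lost without M10, -0.36, adjusted p = 0.068). Calr, a chaperone of the endoplasmic reticulum, was at 418, 442, 411 and 341 CPM in light-zone-like and 94.0, 171, 113 and 65.5 CPM in dark-zone-like CDK2-low cells, a difference of 1.87 against 0.73 in CDK2-high cells (interaction 1.06 ± 0.15, adjusted p = 1.25e-06). Irf2bp2, a transcriptional corepressor, rose by 1.22 in CDK2-low cells and had a difference of -0.14 in CDK2-high cells (interaction 1.29 ± 0.27). Ldha, lactate dehydrogenase, rose by 0.44 in CDK2-low cells, a call lost without M1 or M5 (adjusted p = 0.0634 and 0.0934), and fell by 0.44 in CDK2-high cells (interaction 0.82 ± 0.12, adjusted p = 1.03e-06). Fcer2a went the other way, with 2.03 in CDK2-low and 3.0 in CDK2-high cells (interaction -1.03 ± 0.25, adjusted p = 0.0112), a term lost without M3 or M10 (-0.80 and -0.93). For the NF-kB and CD40 list, 0 of the interaction terms were called in either direction, where 2.42% of all genes were, and their median was 0.04, and 26 of 29 genes were higher in light-zone-like CDK2-high cells. Il4i1 rose by 4.68 and 3.42 in the 2 pools (interaction 1.21 ± 0.61, adjusted p = 0.4), so the 2 estimates were not told apart.

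Antibody sequences from the same cells gave readouts that the class rule did not use. The B1-8hi pairing, a heavy chain from Ighv1-72 with a lambda chain from Iglv1, was read in 1599 light-zone-like (65.8%) and 46 dark-zone-like cells (56.8%), over 689 bases of the 2 chains. Only M5 had 10 such cells of each class. It carried a mean of 4.05 mutations per cell in 407 light-zone-like and 4.06 in 16 dark-zone-like cells, and with 1 mouse there is no test. The sign of this difference turned with the setting, to 0.0940 with cells assigned by their highest hashtag, 0.234 over distinct sequence pairs and 0.5 for medians in place of means. Over the 5 mice with at least 5 cells of each class the means were 4.16 ± 0.31 and 4.40 ± 0.87 mutations (SD, n = 5), a difference of -0.23 (exact sign-flip permutation p = 0.5625, smallest possible 0.0625), which at this depth does not separate the classes. IgG1 was the most frequent isotype, at 87.6% of light-zone-like and 91.3% of dark-zone-like cells with the pairing. IgM was carried by 4.91% of the 407 light-zone-like and by 0 of 16 dark-zone-like cells of M5, which allows a share of up to 18.8% (counting error only). Over the 5 mice the IgM share was 9.49% ± 9.76 and 6.5% ± 9.29 (difference 2.99 points, higher in 4 of 5 mice, exact permutation p = 0.5). The dark-zone-like class was also widened, after seeing the cell numbers, to cells with at most 1 UMI of Cd83 and Cd86, which let 6 mice be used. The mutation difference was then -0.49 (light-zone-like higher in 2 of 6 mice, exact permutation p = 0.1875), and the IgM difference was 3.67 points, higher in 6 of 6 (exact permutation p = 0.03125, the smallest possible). The dark-zone-like IgM share was 0 in M5, M6 and M10, from 36, 12 and 16 cells. At light-zone-like shares of 3.74% to 4.91% in these mice, a share of 0 can come from counting alone. Signs are then not balanced without a difference, as the permutation assumes, so this p-value cannot separate the classes. In CDK2-high cells the IgM difference was 1.35 points, higher in 4 of 7 mice (exact permutation p = 0.406), and the mutation difference 0.045 (exact permutation p = 0.797).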

How the data were processed

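Libraries were 10X Genomics 5′ gene expression, hashtag and antibody (V(D)J) libraries of the CDK2-low and CDK2-high sorts. The authors deposited UMI counts per gene and cell barcode (CellRanger 8.0.1 per the file headers; the submitters' processing notes name Cell Ranger 6.0.1 and Seurat 5.1.0) on the mm39 genome, hashtag counts, and annotated contigs. The letters that name the sorts were read through the study's methods.

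Hashtags were called with HTODemux (Seurat 5.3.0, positive quantile 0.99). Of 5206 CDK2-low barcodes, 4478 were assigned to 1 of 7 mice (9 were listed, of which 7 had hashtag signal), 507 with more than 1 hashtag were removed as doublets, 42 were negative, 178 carried a hashtag that is not in the list of mice and 1 held no hashtag UMIs. No other doublet caller was run. Barcodes below 200 detected genes, or with mitochondrial transcripts at 10% or more of UMIs, were dropped, which left 4385 cells. The CDK2-low and CDK2-high libraries shared 6 barcodes, 0 of them assigned to the same mouse. Counts were summed per mouse and class and tested with edgeR 4.0.16 (filterByExpr, TMM, glmQLFit, glmQLFTest, mouse as a block, Benjamini-Hochberg, R 4.3.3), with DESeq2 1.42.0 as an alternative. The pairing comes from the design, since both classes of a pair come from the same animal, and deviations of the classes from their group means correlated at 0.00549 to 0.184 in the 4 mice over 5030 genes. On simulated data of 8810 genes for the CDK2-low comparison, 55.9% of genes changed by 1 on the log2 scale and 83.1% of those changed by 1.5 were recovered, with 4 false calls. The simulation changed 111 and 89 genes by these sizes and gave every gene the dispersion trend fitted over all genes. It cut no classes from cells, so the 4 false calls do not measure the false calls in the data. Shares and mutation counts were compared by exact two-sided sign-flip permutation (scipy 1.17.1). Phases came from CellCycleScoring in Seurat. Mutations were counted as bases that differ from the commonest heavy-chain and light-chain sequence. Intervals on ratios of UMIs and floors (3 counts) cover counting error only.

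The members and gene lists were chosen with earlier results of these data known. Some genes are in more than 1 list and count in each, so the lists are not separate evidence. Named genes were the 12 largest rises and 12 largest falls among called genes with an average log2 CPM above 5 and 1 sign in every mouse, up to 4 members with the smallest p and 2 with the highest level of each list, 10 genes of interest and the 5 largest pool differences in each direction among genes with an average log2 CPM above 5 in the fit of both pools. This gave 122 genes, of which 17 list members that did not pass are given by count only. Other list members are named to account for the counts, after their values were seen. Immunoglobulin heavy-chain transcripts and a few named genes are not reported here. Cells of a mouse share a lymph node suspension and a library, so p-values rest on the mice of 1 experiment. The edgeR test of the main comparison had 33.98 degrees of freedom with 4 mice. Most of these came from the dispersion shared over genes. An edgeR p-value therefore does not measure only the spread between mice of the gene itself.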

Additional observations from a re-analysis of the deposited data

Results flagged for a closer look

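In 228 groups of 4 to 7 mice, the highest or lowest mouse stood apart from the others in 10 groups by Dixon's test, where chance alone gives about 1 in 20. Mouse M10 had the highest Bcl6 level in dark-zone-like cells (452 CPM) and the lowest Cdkn2c level in light-zone-like cells (23.6 CPM). M3 had the highest Rev1 level (175 CPM) and the lowest Serpinb6b level (4.27 CPM) in dark-zone-like cells, and the highest Aspm level in light-zone-like cells (8.74 CPM). M5 had the highest dark-zone-like levels of the mitotic genes Aspm (148 CPM) and Ube2c (194 CPM). Among light-zone-like cells of mice with at least 5 paired cells of each class, M7 carried the most mutations (4.71 per cell) and M3 the highest IgM share (26.8%). M3 also had the highest IgM share among light-zone-like CDK2-high cells (12.1%).

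The difference between the classes itself differed between the CDK2-low and CDK2-high pools, by the interaction term of edgeR, for 35 of the named genes. Values are the log2 difference in CDK2-low minus that in CDK2-high cells. More positive terms were found for Fgd2 (1.65), Irf2bp2 (1.29), Gatm (1.18), Apex1 (1.09), Calr (1.06), Mif (1.04), Ldha (0.82), Ifi30 (0.67) and Ncl (0.37). Negative terms were found for Cenpf (-3.69), Aspm (-3.54), Kif2c (-3.53), Hmmr (-3.51), Plk1 (-3.29), Birc5 (-3.19), Cdc20 (-3.07), Cdca8 (-2.97), Tpx2 (-2.96), Cdca3 (-2.86), Ccnb2 (-2.84), Ube2c (-2.66), Cenpe (-2.42), Cenpa (-2.08), Cks1b (-2.02), Mki67 (-1.42), Hmgb2 (-1.30), Selenoh (-1.29), H2az1 (-1.26), Hbb-bt (-1.81), Polh (-1.26), Fcer2a (-1.03), Rrm1 (-0.67), Hmces (-0.44), Smarca4 (-0.42) and Gcsam (-0.38). The estimates of the class difference had opposite signs in the pools for Apex1, Cenpe, Cenpf, Hbb-bt, Irf2bp2, Ldha, Mif, Mki67 and Ncl. The part of depth in these terms cannot be told apart from the pool, since the CDK2-high classes differed more in UMIs per cell.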

How the results depend on the processing

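The number of genes that differed between the classes, 1310, was 877 with DESeq2, 1324 with its size factors, 1316 with no filter on low counts, 1081 after thinning and 902 to 1261 with 1 mouse left out. Without the replicate block it was 1368. It moved to 803 with cells of the B1-8hi pairing only (mice with at least 5), 131 with G0-G1 cells only (2 mice), 665 with G0-G1 cells of mice with at least 5, 548 with as many light-zone-like as dark-zone-like cells, 770 with stricter classes (at least 3 UMIs) and 2903 with the wider dark-zone-like class, where fewer or more cells and mice entered. The settings with at least 5 cells, equal cells and the wider class were chosen after seeing the data. The number of pool differences, 220, was 81 after thinning (with other classes, cells and mice), 170 without the replicate block and 128 to 233 with 1 mouse left out. The number of list members called, 152, was 54 with G0-G1 cells only.

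The G0-G1 difference of 24.7 points was 21.4 to 26.7 with 1 mouse left out and 38.1 with stricter classes (3 mice). It passed an exact permutation test without the replicate block (24.7 points, p = 0.0286), with mice of at least 5 cells (17.8) and with the wider class (11.1), where more groupings are possible. The light-zone-like share of cells, 55.4%, was 34.4% with stricter classes and 62.7% after thinning, and the dark-zone-like share, 1.85%, was 3.27% after thinning. The IgM difference in M5 was -0.118 points when cells were assigned by their highest hashtag.

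For the 98 named genes that passed, 1618 of 1840 values under other settings kept direction and call, 213 lost the call and 9 changed sign; with G0-G1 cells only, 47 genes lost the call. For the replicate block, the call was lost for 8 named genes. Signs changed for Bcl6 (-0.12), Cd79b (-0.058), Foxo1 (-0.18), Mxd4 (-0.0058), Nasp (0.012), Rrm1 (0.063) and Ung (1.09) with equal cells, for Foxo1 with B1-8hi cells (-0.10), for Nasp (0.17) and Ung (0.58) in G0-G1 cells, for Foxo1 (-0.027), Nasp (0.32), Rrm1 (0.51) and Ung (0.84) in G0-G1 cells of mice with at least 5, for Nasp (0.067), Ncl (-0.019), the Ncl pool difference (-0.000594) and Ung (0.28) after thinning, for Mif (-0.25) and Ung (0.34) with the wider class, for Mif without M5 and Ung without M3 (with 1 mouse left out, -0.0095 to 0.43 and -0.43 to 0.064), for Rrm1 without the cells of highest UMIs (0.14), and for Hbb-bt (1.38) and its pool difference (0.49) with stricter classes. The cause was not tested. With 11 to 20 dark-zone-like cells per mouse, genes under about 30 CPM rest on a few UMIs each, and 41 called genes had fewer than 3 in all. The settings B1-8hi pairing with at least 10 cells, at least 30 cells per class and G0-G1 cells in both pools were not run, because too few mice were left, nor was leaving out mice for mutations and IgM.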
